A study of Mus musculus with 6 samples.

Results

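GW182 and Argonaute are the core proteins of microRNA silencing, and their 7 mouse genes are Tnrc6a, Tnrc6b and Tnrc6c of the GW182 family and Ago1, Ago2, Ago3 and Ago4 of the Argonaute family. They were selected by gene symbol and were represented by 8 probe sets, 2 of them for Ago2, out of 35557 on the array, of which 21789 carry a single gene symbol. The arrays measured total RNA of mouse yolk sacs at embryonic day 9.5. The 3 mutant yolk sacs came from embryos homozygous for a gene-trap allele of Tnrc6a (GW182gt/gt in the study's notation), and the 3 wild-type yolk sacs came from littermates. Each sample was the yolk sac of 1 embryo, so the RNA of all its cell types was pooled. The genotype labels of both groups add the word mixed without explanation, and where the trap sits in the gene is not given in the sources used.

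An Argonaute protein holds a microRNA and is guided by it to partly complementary messenger RNAs. GW182 proteins bind Argonaute through repeats of glycine and tryptophan and recruit the poly(A)-binding protein and the deadenylase complexes PAN2-PAN3 and CCR4-NOT. The poly(A) tail is then shortened, translation is repressed and the message is decapped and degraded. The yolk sac at this stage is made of visceral endoderm, which absorbs and secretes nutrients, and of mesoderm that forms blood, vessels and mesenchyme.

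In the genome annotation (RefSeq, GRCm38.p6) Ago3, Ago1 and Ago4 are consecutive protein-coding genes on chromosome 4, in that order and on the same strand. Ago2 and Tnrc6b lie apart from each other on chromosome 15, Tnrc6c lies on chromosome 11 and Tnrc6a on chromosome 7. The promoter windows of Tnrc6a and Ago4 are shown, the first because Tnrc6a is the trapped gene and had the largest difference, the other because Ago4 alone fell below the filter on dim probe sets. Each sequence covers 250 bases before and 50 bases after the annotated start in RefSeq GRCm38.p6, and capitals mark CG dinucleotides. The Tnrc6a window is chr7:123123635-123123934 on the plus strand and the Ago4 window is chr4:126533409-126533708 on the minus strand.
Tnrc6a: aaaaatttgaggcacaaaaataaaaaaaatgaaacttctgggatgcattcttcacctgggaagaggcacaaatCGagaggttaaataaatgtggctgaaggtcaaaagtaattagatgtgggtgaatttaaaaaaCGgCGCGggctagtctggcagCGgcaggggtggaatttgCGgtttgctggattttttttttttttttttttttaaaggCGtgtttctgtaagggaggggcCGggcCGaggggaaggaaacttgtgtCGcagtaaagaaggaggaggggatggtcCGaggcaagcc
Ago4: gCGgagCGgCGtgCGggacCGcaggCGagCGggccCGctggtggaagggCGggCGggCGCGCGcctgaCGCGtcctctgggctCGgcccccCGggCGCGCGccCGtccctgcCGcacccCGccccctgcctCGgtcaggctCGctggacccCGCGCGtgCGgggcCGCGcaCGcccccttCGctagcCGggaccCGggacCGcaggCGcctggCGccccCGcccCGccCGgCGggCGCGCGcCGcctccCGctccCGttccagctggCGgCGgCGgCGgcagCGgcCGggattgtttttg
The Tnrc6a window held 11 CG dinucleotides at a GC content of 44.7%, and 41.4% of the 32851 promoter windows in the table held at least as many. The Ago4 window held 54 at a GC content of 83.3%, a number reached by 0.347% of all windows. Of the 7 genes 6 had entries, 8 windows in all, and the CG counts of the others were 18 and 9 for Tnrc6b, 40 for Tnrc6c, 38 and 31 for Ago1 and 37 for Ago3. No member window held TATAAA on either strand, against 13.6% of all windows that did. The GC box GGGCGG, which contains a CG, was found on either strand 5 times each in the Ago3 and Ago4 windows, 2 times in each Ago1 window and 1 time in 1 Tnrc6b window, and 35.7% of all windows held it. These matches describe the letters of the windows only.

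The members were read against the state of the samples. The 6 array medians lay between 5.19 and 5.22 on the log2 scale, the number of arrays limits the precision, and the correlation across tested probe sets was r = 0.984 to 0.993 for arrays of the same genotype and r = 0.984 to 0.995 for arrays of different genotypes. Markers of visceral endoderm were present on every array: Afp read 12.6 to 12.7 and Ttr, the thyroid hormone carrier transthyretin, 12.6 to 12.7. Of the visceral endoderm list 12 of 20 tested genes had a higher and 8 a lower mean in the mutants, with counts of 0 and 10 for primitive erythroid, 14 and 1 for endothelium, 9 and 3 for mesenchyme, 2 and 5 for macrophages, 4 and 6 for trophoblast, decidua and parietal endoderm, and 5 and 0 for the embryo proper. Wild type 2 had the highest summed signal of the trophoblast, decidua and parietal endoderm list, 5999 on the linear scale, against 2450 to 3635 on the other 5 arrays. The brightest genes of that list, Sparc and Lamb1, at 11.3 and 10.7 on the log2 scale in wild type 2, weigh most in this sum. Wild type 2 also had the highest mesenchyme sum, 11939 against 7052 to 10595 on the other 5 arrays. Among 4 tested sex genes, Xist was high in the library labelled mutant 1, mutant 3 and wild type 1, and the Y-linked genes were high in the other 3 arrays.

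Tnrc6a was the gene with the largest drop in mean signal between genotypes, but the drop was found in 2 of the 3 mutant libraries. Its log2 signals were 7.81, 5.33 and 5.20 in the libraries labelled mutant 1, 2 and 3, against 8.40, 7.62 and 8.29 in wild types 1 to 3. Mutants 2 and 3 lay below all wild types, and the library labelled mutant 1 lay between wild type 2 and the other wild types, so that the groups overlapped. On the linear scale the remaining signal was 14.6% and 13.3% of the wild-type mean in mutants 2 and 3 and 81.2% in the library labelled mutant 1, while wild type 2 itself stood at 71.5%. At this 1 probe set the level in that library goes against its label, and the cause was not tested. The library is included in all mutant values below unless stated.

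The mean was 6.11 ± 1.47 in the mutants and 8.11 ± 0.42 in wild type (SD, n = 3 each), a log2 difference of −1.99 (SE 0.64, 95% interval −3.49 to −0.50), with the SE and interval from limma. Among 15252 tested probe sets with a single gene symbol this was the most negative difference, ahead of the Y-linked gene Eif2s3y at −1.80 and Hsd3b6, a steroid dehydrogenase gene, at −1.64. Like the other Y-linked genes, Eif2s3y was high in mutant 2 and wild types 2 and 3 and low in the other arrays. The within-genotype residual SD of Tnrc6a, 1.08, was larger than that of 99.8% of the tested probe sets. By its limma p Tnrc6a ranked 140 of 15252, with an unadjusted p of 0.0156 and an adjusted p of 0.999 (Benjamini-Hochberg). The limma fit draws so large a variance toward that of the other probe sets, and other tests gave weaker results. With robust variances and an intensity trend the unadjusted limma p was 0.0497, at rank 515. By the methods' t-test the unadjusted p was 0.0866, at rank 1080. By exact permutation of the labels, two-sided, p was 0.2, and 3 against 3 arrays cannot go below 0.1. At an adjusted threshold of 0.05, 0 of the 15252 probe sets (0%) passed in limma and 0 by the methods' t-test named in the study's design, while 538 (3.53%) had an unadjusted limma p under 0.05. The genotypes did not overlap at 8.55% of them.

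Without the library labelled mutant 1 the difference was −2.84, the limma p was 7.05e-06 and Tnrc6a ranked first by p, with an adjusted p of 0.107. Its removal had to widen the difference, because the Tnrc6a level was what set it apart. Leaving out wild type 1, wild type 3 or mutant 2 moved Tnrc6a to places 8, 7 and 8 among the most lowered probe sets, and it stayed the most lowered without wild type 2, without the library labelled mutant 1 or without mutant 3. With the probe sets that have no symbol or several added, it was 2nd of 24890.

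**Figure D1:**
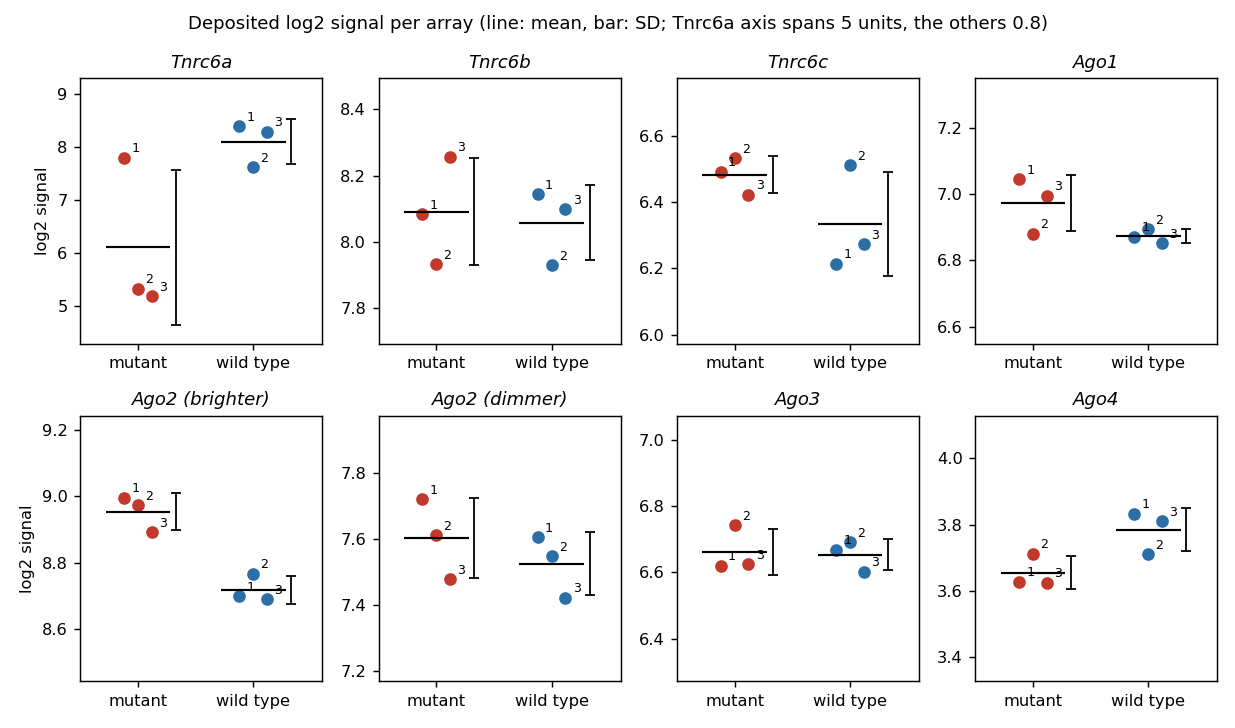
Deposited log2 signal of the 8 probe sets in 3 mutant arrays (left, red) and 3 wild-type arrays (right, blue), with digits giving the replicate, lines the means and bars the SD. The 2 lowest Tnrc6a values are mutants 2 and 3, and the brighter Ago2 probe set is the 1 panel in which the groups do not overlap.

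The other GW182 genes, Tnrc6b and Tnrc6c, encode proteins that bind the same Argonaute and deadenylase partners as Tnrc6a. Neither passed the test. Tnrc6b had log2 signals of 8.08, 7.93 and 8.26 in the libraries labelled mutant 1, 2 and 3, against 8.14, 7.93 and 8.10 in wild types 1 to 3. The groups overlapped, and the means were 8.09 ± 0.16 in the mutants and 8.06 ± 0.11 in wild type (SD, n = 3 each). The log2 difference of 0.034 (SE 0.11) had a 95% limma interval from 0.858-fold to 1.22-fold (adjusted p = 0.999, exact permutation p = 0.9). Mutants 2 and 3, in which Tnrc6a was low, gave the second lowest and the highest Tnrc6b value of the 6 arrays.

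Tnrc6c read 6.49, 6.53 and 6.42 in the libraries labelled mutant 1, 2 and 3, against 6.21, 6.51 and 6.27 in wild types 1 to 3. All mutant values lay above wild types 1 and 3, and wild type 2 lay among the mutants. The means were 6.48 ± 0.056 in the mutants and 6.33 ± 0.16 in wild type (SD, n = 3 each), a log2 difference of 0.15 (SE 0.10) with an interval from 0.943-fold to 1.30-fold (limma adjusted p = 0.999, exact permutation p = 0.3). Wild type 2 was the array with the highest summed signals of mesenchyme and of trophoblast, decidua and parietal endoderm. Without it the Tnrc6c difference was 0.24 with an unadjusted limma p of 0.0393 (adjusted p = 0.940). Since wild type 2 was the highest wild type for Tnrc6c, its removal had to widen the difference. In that fit 751 of the 15252 probe sets had an unadjusted limma p under 0.05. The part of those tissue signals in the Tnrc6c value was not tested.

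The change of Tnrc6a was set against that of its paralogues within each array. The log2 signal of Tnrc6a minus that of Tnrc6b was −0.28, −2.60 and −3.06 in the libraries labelled mutant 1, 2 and 3, against 0.26, −0.31 and 0.19 in wild types 1 to 3. The genotype means of this quantity differed by −2.03 (exact two-sided permutation p = 0.2). For Tnrc6c the corresponding genotype difference was −2.14 (exact two-sided permutation p = 0.2), where the smallest p is 0.1. The library labelled mutant 1 fell inside the wild-type range in both cases, and mutants 2 and 3 fell below it.

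Among the Argonautes, Ago2 had the clearest separation. It is the member best known for cleaving target RNA and is needed for embryonic development. Its brighter probe set read 8.996, 8.97 and 8.89 in the libraries labelled mutant 1, 2 and 3, against 8.70, 8.77 and 8.69 in wild types 1 to 3. All 3 mutant values exceeded all wild-type values, the library labelled mutant 1 being the highest. Such a lack of overlap was found at 8.55% of all tested probe sets. The means were 8.95 ± 0.055 in the mutants and 8.72 ± 0.042 in wild type (SD, n = 3 each). The log2 difference was 0.24 (SE 0.078), a level 1.18-fold higher with an interval from 1.04-fold to 1.33-fold. The limma p of 0.0171 became 0.999 after adjustment, so the gene did not pass, and the exact permutation p was 0.1, the smallest possible. The residual SD of 0.049 was low: 4.81% of tested probe sets had a smaller one.

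The dimmer Ago2 probe set did not show the separation. It read 7.72, 7.61 and 7.48 in the libraries labelled mutant 1, 2 and 3, against 7.61, 7.55 and 7.42 in wild types 1 to 3, with overlapping groups. Its log2 difference was 0.078 (SE 0.096, limma adjusted p = 0.999, exact permutation p = 0.4), and its interval, from 0.903-fold to 1.23-fold, overlapped that of the brighter one. The database accession common to both probe sets is that of the Ago2 mRNA, and which part of it each set reads is not stated in the annotation used.

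No endothelial or erythroid marker passed the adjusted test (0 of 15 and 0 of 10), and 4 endothelial markers, all higher, and 2 erythroid markers, both lower, had an unadjusted limma p under 0.05. Over all 13904 tested genes 480 (3.45%) had such a p, 309 higher and 171 lower. The summed linear signal of 15 endothelial markers was 3257 to 4239 in the mutants and 2918 to 3457 in wild type, with overlap. The sum of 10 primitive erythroid markers was 18328 to 24450 in the mutants and 25684 to 26268 in wild type, without overlap. On the linear scale the brightest genes, the globins Hbb-y, Hba-x and Hbb-bh1, weigh most in this sum. Relative to the wild-type mean the erythroid list averaged −0.091, −0.75 and −0.12 on the log2 scale in the libraries labelled mutant 1, 2 and 3, so most of its distance lay in mutant 2. Wild types 1 to 3 averaged 0.013, −0.076 and 0.063, so wild type 2 lay close to the library labelled mutant 1. None of these markers was at 0, and their part in the Ago2 difference was not tested. In bulk samples, fewer cells of a type and less RNA per cell cannot be told apart.

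Ago1 and Ago3, which load microRNAs along with Ago2, did not pass the test. Ago1 read 7.05, 6.88 and 6.995 in the libraries labelled mutant 1, 2 and 3, against 6.87, 6.90 and 6.85 in wild types 1 to 3. The library labelled mutant 1 and mutant 3 lay above all wild types and mutant 2 among them. The log2 difference was 0.10 (SE 0.081), with an interval from 0.942-fold to 1.22-fold (limma adjusted p = 0.999, exact permutation p = 0.2).

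Ago3 read 6.62, 6.74 and 6.63 in the libraries labelled mutant 1, 2 and 3, against 6.67, 6.69 and 6.60 in wild types 1 to 3, so that the groups were fully intermixed. Its log2 difference was 0.0087 (SE 0.080), and its interval ran from 0.884-fold to 1.14-fold (limma adjusted p = 0.999, exact permutation p = 0.8). An interval of this width leaves room for changes of that size in either direction.

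Ago4 was not tested with the other members, since its mean signal of 3.72 lay below the filter of 4.34 on dim probe sets. It read 3.63, 3.71 and 3.62 in the libraries labelled mutant 1, 2 and 3, against 3.83, 3.71 and 3.81 in wild types 1 to 3. Mutant 2 and wild type 2 were level and the other mutants lay below the other wild types. The difference of −0.13 was opposite in sign to those of the other Argonautes. It did not pass in a fit without the filter (limma adjusted p = 0.999, unadjusted p = 0.161) and had an exact permutation p of 0.2. At this signal a low level and background cannot be told apart.

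**Figure D2:**
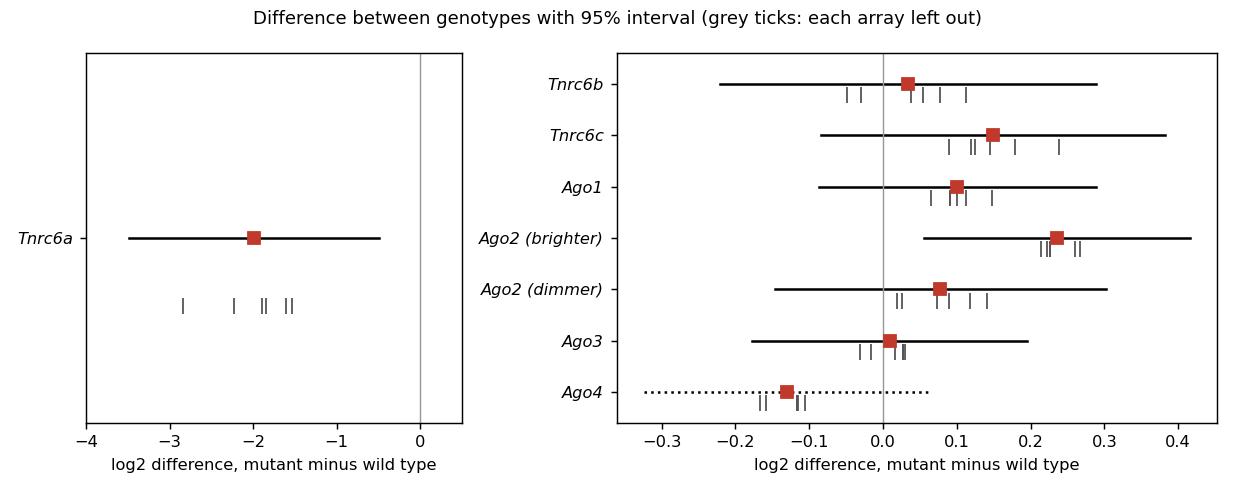
Log2 difference between genotypes, mutant minus wild type (squares), with 95% limma intervals (lines) and the value with each array left out (ticks), Tnrc6a on its own scale at left. The Tnrc6a interval spans −3.49 to −0.50, and among the other members the interval of the brighter Ago2 probe set alone excludes 0; the dotted Ago4 interval comes from the fit without the filter on dim probe sets.

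Of the 8 member probe sets 7 passed the filter and 0 passed the adjusted threshold. An unadjusted limma p under 0.05 was found for 2 of the 7 (28.6%, against 3.53% of all tested probe sets). They were those of Tnrc6a and the brighter Ago2 set. Tnrc6a is the trapped gene, and without it the count was 1 of 6. The groups did not overlap at 1 of the 7, the brighter Ago2 set (14.3%, against 8.55% of all tested probe sets). Among the 6 tested probe sets of genes other than Tnrc6a, all had a mean above that of wild type, where 52.9% of all tested probe sets did. Their median log2 difference was 0.089, against 0.0077 over all tested probe sets. The 2 Ago2 sets share 1 gene, and the signs of Tnrc6b and Ago3 turned when some single arrays were left out.

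The other genes of the pathway were described from 6 lists with 93 genes, of which 85 were tested at their brightest probe set. None passed the adjusted threshold, 59 (69.4%) had a higher and 26 a lower mean in the mutants, where 53.1% of 13904 genes had a higher one, and 1 had an unadjusted p under 0.05, where 3.45% of those genes did. The groups did not overlap at 6 of them (7.06%), all 6 higher in the mutants, against 8.57% of all tested genes. The list median over these 85 genes was 0.026, against 0.0083 over all tested genes.

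The microRNA processing list, which holds enzymes that make microRNAs, their cofactors and factors such as Lin28a that block or degrade precursors, had 13 of 18 tested genes with a higher mean, 0 past either threshold and a median of 0.038. Drosha, the nuclear enzyme that cuts primary transcripts, read 8.63, 8.65 and 8.67 in the libraries labelled mutant 1, 2 and 3, against 8.55, 8.55 and 8.35 in wild types 1 to 3. Its groups did not overlap, with wild type 3 apart at the low end, and the limma log2 difference was 0.17 (SE 0.088, unadjusted p = 0.0941). Dicer1, which cuts the hairpin in the cytoplasm, differed by 0.16 (SE 0.093) and its partner Tarbp2 by 0.14 (SE 0.080). Drosha and Tarbp2 were the 2 genes of this list without overlap between genotypes, both higher in the mutants. That is 2 of 18, where 8.57% of all tested genes had no overlap.

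Among partners of Argonaute 14 of 19 tested genes had a higher mean, with a median of 0.020. Mov10, which encodes a helicase of Argonaute complexes, was the 1 gene of these 6 lists with an unadjusted p under 0.05. It read 9.54, 9.82 and 9.42 in the libraries labelled mutant 1, 2 and 3, against 9.16, 9.24 and 9.19 in wild types 1 to 3. All mutants lay above all wild types, with mutant 2 the highest, and the limma log2 difference was 0.40 (SE 0.11, unadjusted p = 0.00872, adjusted p = 0.999). Fmr1, the RNA-binding protein gene of fragile X syndrome, differed by 0.092 and Tsnax, encoding the partner of translin, by −0.10.

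The effectors that GW182 recruits showed no gene past either threshold. Of the poly(A)-binding proteins and their regulators 1 of 5 tested genes had a higher mean (median −0.056), with Pabpn1, the nuclear binding protein, at −0.082, Paip2, an inhibitor of PABP, at −0.12 and Paip1, a translational coactivator, at −0.056. Of the PAN2-PAN3 and CCR4-NOT deadenylases with their regulators 14 of 18 had a higher mean (median 0.037). In that list the CCR4-NOT subunit gene Cnot3 differed by 0.13, the nuclease gene Cnot6l by 0.14 and the antiproliferative gene Tob2 by 0.090.

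In the list of decapping and decay 17 of 24 had a higher mean (median 0.026). Lsm2 and Lsm3, subunits of the ring that binds shortened tails and of the spliceosome, differed by −0.19 (SE 0.092) and −0.11, and the decapping activator gene Patl1 by 0.098 (SE 0.074). Patl1 and the decay factor gene Zfp36 were the 2 genes of this list without overlap between genotypes, both higher in the mutants. That is 2 of 24, where 8.57% of all tested genes had no overlap. Of the PIWI genes, the germline branch of the Argonaute family, 1 of 3 passed the filter, and Piwil2 differed by −0.15 (SE 0.13).

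**Figure D3:**
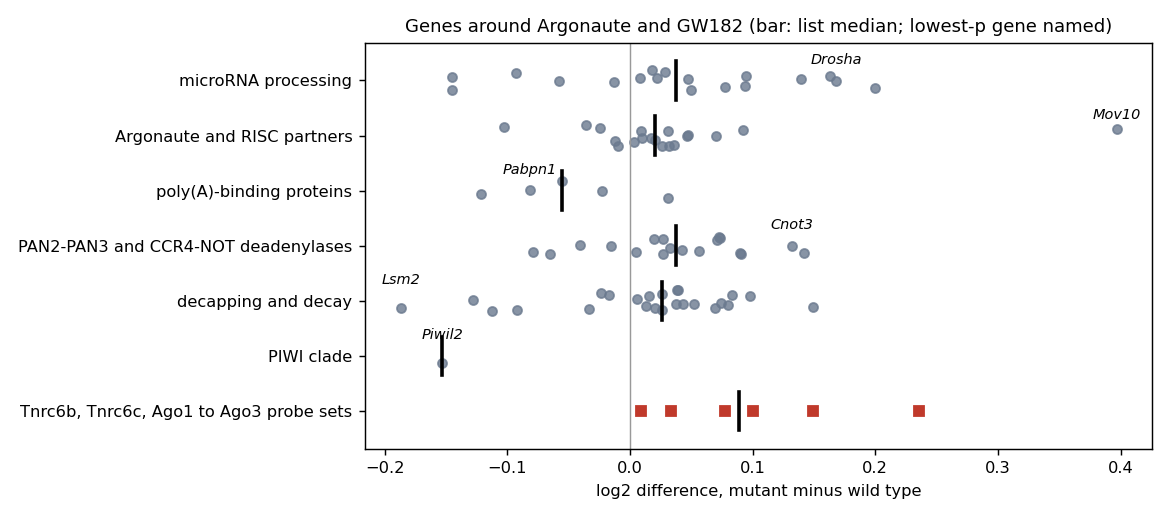
Log2 difference, mutant minus wild type, of the 85 tested genes of 6 lists around Argonaute and GW182 (grey points) and of the 6 tested member probe sets other than that of Tnrc6a (red squares), with bars at the medians. Mov10 at 0.40 is the most distant point, and the 6 red squares lie between 0.0087 and 0.24.

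The genes whose values followed Tnrc6a most closely were Rdh12, Abhd1, Ctse, Fbp2 and Aldh1b1. Likeness was the root mean square difference between mean-centred log2 values over the 6 arrays, and it was 0.74, 0.78, 0.86, 0.88 and 0.91 for these genes in that order, where a gene with no variation would have 1.33. The measure carries no test, since the genes were picked by it. That picking also favoured genes in which the library labelled mutant 1 is the highest mutant, so its place is no separate evidence. Rdh12, which reduces retinal, read 6.77, 6.11 and 5.56 in the libraries labelled mutant 1, 2 and 3, against 7.15, 6.89 and 7.57 in wild types 1 to 3. As with Tnrc6a, the library labelled mutant 1 was the highest of the mutants and nearest to the wild types, but here it lay below all of them.

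Abhd1, a gene of the alpha/beta hydrolase fold, read 7.17, 6.14 and 6.19 in the libraries labelled mutant 1, 2 and 3, against 7.25, 7.12 and 7.96 in wild types 1 to 3. Here the library labelled mutant 1 lay between wild types 2 and 1, the position it held for Tnrc6a. Ctse, which encodes the aspartic protease cathepsin E, read 7.11, 5.56 and 6.46 in the libraries labelled mutant 1, 2 and 3, against 7.11, 6.67 and 7.54 in wild types 1 to 3. Fbp2 and Aldh1b1, enzymes of gluconeogenesis and aldehyde oxidation, had their highest mutant value in the library labelled mutant 1 too, at 7.34 and 6.87. Both of these values lay below all wild types. Wild types 1 to 3 read 7.47, 8.14 and 8.25 for Fbp2 and 7.37, 7.24 and 7.69 for Aldh1b1. None of the 5 passed the adjusted test (limma adjusted p = 0.999 for each).

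**Figure D4:**
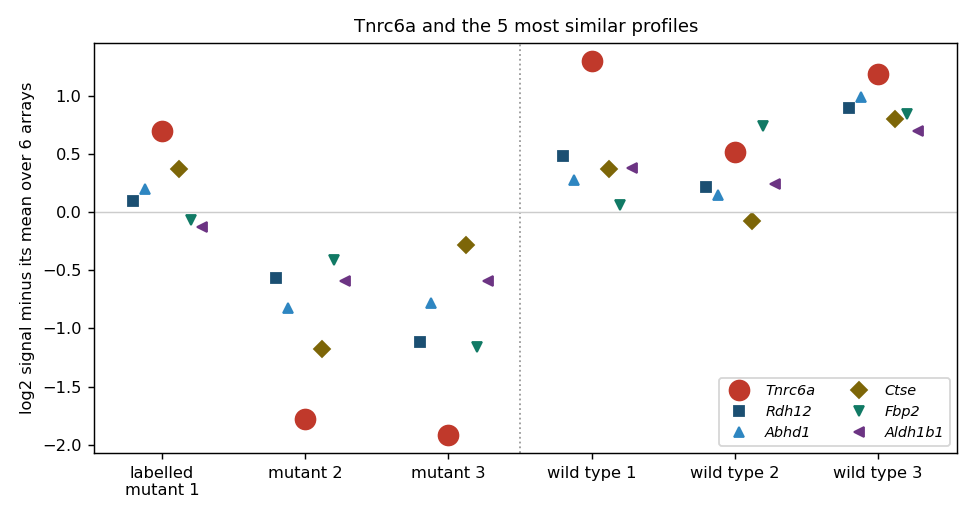
Log2 signal minus its mean over the 6 arrays (vertical axis) for Tnrc6a and the 5 genes with the most similar values, with the 3 mutant arrays left of the dotted line and the 3 wild-type arrays right of it. For Tnrc6a and all 5 genes the library labelled mutant 1 is the highest of the mutant arrays, an order that picking by likeness to Tnrc6a favours. The Tnrc6a values of mutants 2 and 3 lie below all other points.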

How the data were processed

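Trizol-extracted total RNA of individual yolk sacs was biotin-labelled for Affymetrix Mouse Gene 1.0 ST arrays, per the labels' protocols. The authors deposited processed log2 values for 35557 probe sets; the scale was read from their range of 0.66 to 13.7. MAS5 is the only tool in the submitters' processing notes. Background step, normalization and genome build are not given in the sources used, and the values were used as deposited. Groups came from the sample titles. At most 122 values were identical between 2 arrays.

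Gene names came from GEO's annotation of the platform (21789 with 1 symbol, 1621 with several, 12147 with none). Single-symbol probe sets whose mean reached their 30th percentile (4.34) were tested, 15252 probe sets of 13904 genes. Mutant minus wild type was fitted with limma 3.58.1 in R 4.3.3 (4 residual and 3.61 prior degrees of freedom, no block). P-values were adjusted by Benjamini-Hochberg across the 15252 and called at 0.05. The script was tested on simulated data. Single values were compared by exact permutation over 20 assignments. Named genes were all 7 members, the 3 of lowest p in each pathway list and the 5 nearest to Tnrc6a without clone or predicted-gene names; the genes with the largest drops beside Tnrc6a, Zfp36 and the markers were named after their values were seen. The members and lists were chosen with earlier results of these data known. Nothing in the labels marks the samples beyond individual embryos, and litters are not given.

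Of the alternatives, the closing section gives the effect of other normalizations and filters, array weights, robust variances with an intensity trend, the methods' t-test of the design text, the replicate number as a block, Xist as a covariate and leaving out arrays.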

Additional observations from a re-analysis of the deposited data

How the results depend on the processing

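Over 17 alternatives, Tnrc6a was lower and Tnrc6c, Ago1 and both Ago2 probe sets higher in the mutants in each; Ago4 was lower in the 10 that gave it a value. Tnrc6a passed the adjusted threshold in 1, with both wild type 2 and the library labelled mutant 1 left out (−3.08, adjusted p = 0.00245; 0.107 or higher in the others), where it was the 1 probe set called. These were its lowest wild type and its highest mutant, so the difference had to widen. With 1 array left out the differences ran from −2.84 to −1.54 for Tnrc6a, −0.049 to 0.11 for Tnrc6b, 0.090 to 0.24 for Tnrc6c, 0.065 to 0.15 for Ago1, 0.21 to 0.27 for the brighter Ago2 set, 0.019 to 0.14 for the dimmer one, −0.031 to 0.030 for Ago3 and −0.17 to −0.11 for Ago4. The unadjusted limma p of Ago2 was 0.0131 to 0.0573 over these fits and that of Tnrc6a 7.05e-06 to 0.0577. Tnrc6a minus Tnrc6b ran from −2.88 to −1.49 and Tnrc6a minus Tnrc6c from −2.98 to −1.72. Tnrc6b turned negative without wild type 2 (−0.030) or mutant 3 (−0.049), with array weights (−0.038), with the Xist covariate (−0.029) and with those 2 arrays left out (−0.026). Ago3 turned negative without wild type 3 (−0.017) or mutant 2 (−0.031). The cause of these turns was not tested; both genes differed by less than their SE.

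The 538 probe sets at an unadjusted p under 0.05 became 879 of 24890 with the probe sets of no or several symbols added, under a 30th percentile taken over the whole table, 1014 with array weights, 1124 with those 2 arrays left out, 371 without wild type 1 and 1252 without mutant 3. Among pathway genes 1 had such a p, Mov10, and it kept it in all 17. The count became 2 with array weights, 4 with the methods' t-test (Tarbp2, Mov10, Patl1 and Zfp36), 1 to 4 with 1 array left out and 6 with those 2 arrays left out. The design text names an unpaired test, so the numbers were not taken to pair the samples. The deviations of same-numbered arrays from their group means correlated at r = 0.46, 0.14 and −0.11. With the replicate number as a block 702 probe sets had an unadjusted p under 0.05 and 0 passed the adjusted threshold; p was 0.00561 for Tnrc6a and 0.0289 for Ago2, at unchanged differences. In these deviations the library labelled mutant 1 and mutant 2 correlated best with the wild type of their own number. Mutant 3 correlated best with wild type 2 (r = 0.25). For Ago4 the deposited table gives no background level, which limits what its signal shows.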
